A study of Mus musculus with 9 samples.

Results

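Mouse inguinal adipose stromal cells were differentiated towards white adipocytes with 50 µM sodium alginate, and their gene expression was compared with that of cells differentiated without alginate. The comparison holds 6 of the 9 libraries of the series: libraries 1 to 3 at 50 µM and libraries 1 to 3 at 0 µM, assigned by the treatment label. The other 3 libraries, at 100 µM, entered the model only for its estimate of spread and are set beside the results as values. All 6 libraries came from primary cells of wild-type C57 mice, given as C57BL/6J in the design text, with no further allele. The protocol gives every dose, 0 µM included, rosiglitazone at 1 µM and insulin at 1 µg/ml, with dexamethasone at 1 µM and IBMX at 0.5 mM added until day 2. The design text names no rosiglitazone and only insulin after the change of medium. Collection was on day 7 by the protocol and on day 6 by the titles. No label says that replicate libraries are separate mice or cultures, and none gives the age of the mice, so the p-values cover only library-to-library spread, possibly technical. Of 41761 genes in the table, 12635 reached 1 FPKM in 3 or more of the 9 libraries and were tested, and 29126 lay under that filter.

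Adipose stromal cells are a mixed population that holds the progenitors of fat cells, marked among others by the receptor gene Pdgfra. The hormone cocktail drives them through a cascade of transcription factors that ends with PPARγ and C/EBPα, which switch on genes for fatty acid synthesis, lipid droplets, lipolysis and mitochondrial metabolism while genes of matrix and progenitors decline. Rosiglitazone is itself a ligand of PPARγ. Sodium alginate is a polysaccharide salt from brown algae, and the study's title links it to subcutaneous fat differentiation and the PPAR pathway.

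Whole reads could be rebuilt from the FPKM values (fragments per kilobase of gene, scaled to the depth of the library). They ranged from 14314663 to 14583502 per library at 0 µM and from 15359348 to 16523540 at 50 µM. Adipocyte markers were high in both groups. Cidec, a lipid droplet gene, had 695, 697 and 705 FPKM at 0 µM and Adipoq, the adiponectin gene, 622, 589.7 and 569.5 FPKM. Stromal genes were high as well, with 888, 778 and 837 FPKM of Col1a1, a collagen of fibroblasts, in the same libraries. The libraries therefore held RNA of adipocyte and stromal character together, and in such bulk samples fewer cells of a type and less RNA per cell cannot be told apart. Lep, the leptin gene, was listed at 0 in all 6 libraries. Ucp1, the thermogenic uncoupling protein gene, had 0.168, 0.203 and 0.204 FPKM at 0 µM and 0.145, 0.189 and 0.194 FPKM at 50 µM and was under the filter.

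At 50 µM, a few genes of lipogenesis, lipid droplets and lipolysis were called higher, among them Thrsp, Elovl3, Plin1 and Lipe, and a few progenitor and matrix genes were called lower, among them Pdgfra, Pdpn, Postn and Mmp2. Most tested members of those lists did not pass. The shifts were small. Limma on log2(FPKM + 1) called 45 genes higher and 55 lower at a Benjamini-Hochberg adjusted p below 0.05, which is 0.356% and 0.435% of the 12635 tested and 0.791% together. The median log2 fold change was 0.31 over the 45 higher genes and -0.37 over the 55 lower ones, and 2 of the 100 exceeded 1 in size, both under 4 FPKM in every library. In each of the 100 genes the 3 values at 50 µM lay outside the range of the 3 values at 0 µM. That was so for 20.7% of all tested genes, 12.1% higher and 8.58% lower, so separation of the values was far more frequent than a call. The smallest adjusted p was 0.0253, and 54 genes were below 0.03. A limma fit on the 6 libraries of these doses alone called 0 genes (smallest adjusted p = 0.0593, 1837 genes with an unadjusted p below 0.05), and the fit without 50 µM library 3 called 13, so the calls lie close to the threshold.

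**Figure D1:**
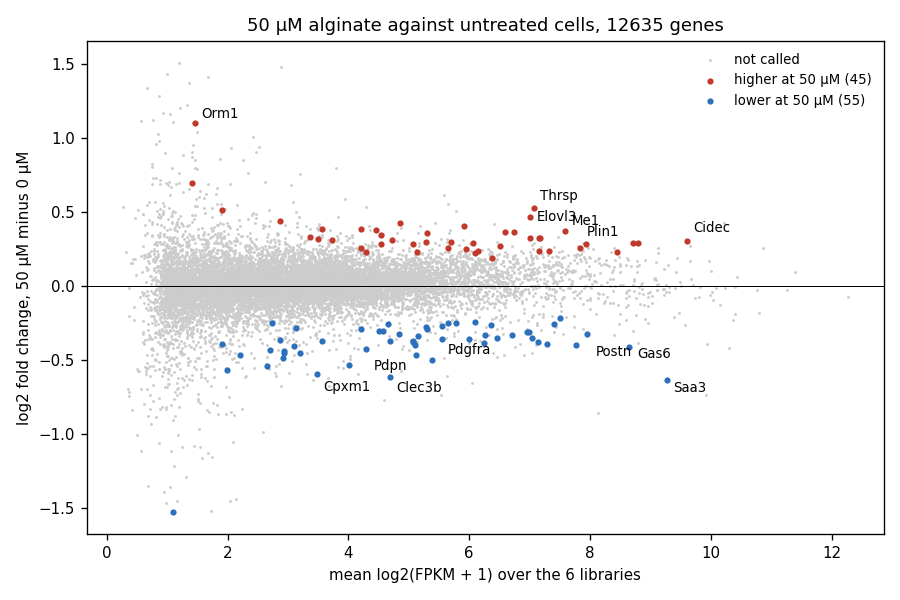
Log2 fold change of 50 µM against 0 µM (vertical axis, on the log2(FPKM + 1) scale) against the mean log2(FPKM + 1) over the 6 libraries (horizontal axis), 1 point per gene for 12635 genes, with the 45 genes called higher in red and the 55 called lower in blue. Thrsp, Elovl3, Me1 and Cidec lie among the highly expressed genes that rose, Saa3, Gas6 and Postn among those that fell, and most called genes lie within 0.5 of the zero line.

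On the log2(FPKM + 1) scale the largest increases among called protein-coding genes above 5 FPKM were in Thrsp and Elovl3, both on the list of lipogenesis genes. In percent of mean FPKM Plbd1, at 42.3%, stood between Thrsp (44.6%) and Elovl3 (38.4%). Thrsp, which encodes the Spot14 protein tied to lipogenesis, had 119.6, 103 and 110.2 FPKM in the 0 µM libraries and 165, 157 and 158 FPKM in the 50 µM libraries. Every 50 µM library was above every control, by 44.6% on average (log2 fold change 0.53 ± 0.058, SE, limma adjusted p = 0.0253, and 0.0434 without 50 µM library 3). Elovl3, a fatty acid elongase that is also used as a beige fat marker, had 119, 97.5 and 109 FPKM at 0 µM and 152, 152 and 146 FPKM at 50 µM. Its 50 µM values lay within 5% of each other while the controls spread more widely, and the log2 fold change was 0.47 ± 0.067 (limma adjusted p = 0.0253, 0.0629 without library 3). Me1, the malic enzyme that supplies NADPH for lipid synthesis, had 172, 159 and 175 FPKM at 0 µM and 221, 226 and 207 FPKM at 50 µM. Library 3 was the lowest of the 50 µM libraries for Me1 and still above the highest control (log2 fold change 0.37 ± 0.053, limma adjusted p = 0.0253). Acss2, which makes acetyl-CoA from acetate, rose from 9.16 ± 0.677 to 11.7 ± 0.329 FPKM (SD, n = 3), and Hsd17b12, an enzyme of fatty acid elongation, from 319.6 ± 11.7 to 375 ± 2.38 FPKM.

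Of 23 tested genes of de novo lipogenesis, 4 passed (Thrsp, Elovl3, Me1 and Acss2) and 0 were called lower, against 0.356% of all genes called higher. This list and those below were chosen with earlier results of these data known. Their counts and medians are therefore no independent evidence of a direction. The lipogenesis list's median log2 fold change was 0.22, beside 0.01 for all genes tested, and 0.26 without library 3. Fasn and Scd1 did not pass with all libraries. Fasn, the fatty acid synthase, had 348, 281 and 296 FPKM at 0 µM and 387, 397 and 322 FPKM at 50 µM (limma adjusted p = 0.289). Scd1, the stearoyl-CoA desaturase, had 1898, 1558 and 1695 FPKM and 2127, 2161 and 1854 FPKM (limma adjusted p = 0.267). In both genes library 3 fell among the control values while libraries 1 and 2 lay above all controls. Limma's voom, run on the rebuilt reads, gave adjusted p = 0.0805 for Fasn and 0.0568 for Scd1 with library 3, and 0.0062 and 0.00946 without it. The limma fit without library 3 gave 0.157 and 0.202.

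Plin1, Cidec, Agpat2 and Agpat9 of the lipid droplet and triglyceride list and Lipe and Prkaca of the lipolysis list were called higher. Plin1, the perilipin that coats the droplet and gates lipolysis, had 209, 209 and 209 FPKM at 0 µM and 249, 254 and 247 FPKM at 50 µM. Its groups were separated by many times the spread within them, for an increase of 19.6% (log2 fold change 0.26 ± 0.036, limma adjusted p = 0.0253, 0.0615 without library 3). Cidec, which fuses droplets, went from the control values above to 871, 866 and 856 FPKM (log2 fold change 0.31 ± 0.045, limma adjusted p = 0.026). Lipe, the hormone-sensitive lipase, had 130.0, 122 and 127 FPKM at 0 µM and 158, 161 and 155 FPKM at 50 µM (log2 fold change 0.33 ± 0.045). The lipase and the droplet protein that restrains it thus rose side by side. Prkaca, the catalytic subunit of protein kinase A that activates lipolysis, rose from 64.1 ± 1.30 to 75.6 ± 0.414 FPKM, and Pla2g16, an adipocyte phospholipase, from 34.4 ± 0.182 to 42.4 ± 1.63 FPKM. The acyltransferases Agpat2 and Agpat9, which build phosphatidic acid and its precursor on the way to triglyceride, rose from 399 ± 20.2 to 489 ± 14.6 FPKM and from 45.2 ± 1.36 to 54.1 ± 0.358 FPKM.

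Counts by list were 3 higher of 19 tested in lipolysis (Lipe, Plin1 and Prkaca) and 4 of 24 in triglyceride and lipid droplets (Plin1, Cidec, Agpat2 and Agpat9), with 0 lower in each. Their median log2 fold changes were 0.18 and 0.17. Of all genes tested, 0.356% were called higher, and the lists of this paragraph share members such as Plin1. Among 29 tested markers of mature adipocytes 5 were higher (Plin1, Cidec, Lipe, Agpat2 and Thrsp) and 0 lower, with a median of 0.17. Adipoq and Fabp4 were not among them. Adipoq had 665, 631 and 670.4 FPKM at 50 µM against the control values above (limma adjusted p = 0.326), and Fabp4, the adipocyte fatty acid carrier, 2569.8, 2687 and 2545 FPKM at 0 µM and 2784, 2555 and 3029 FPKM at 50 µM (limma adjusted p = 0.603). The deposited length of Fabp4, 4489 bases, equals its whole genomic span, introns included, which lowers its level in FPKM.

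The receptor named in the study's pathway did not pass at this dose. Pparg had 40.9, 42.1 and 40.7 FPKM at 0 µM and 47.3, 47.5 and 43.8 FPKM at 50 µM, so all 50 µM libraries were above all controls, with a log2 fold change of 0.16 ± 0.056 and a limma adjusted p of 0.222. Cebpa, its partner, had 239, 235 and 251 FPKM and 281, 295 and 286 FPKM, again without overlap (log2 fold change 0.25 ± 0.066, limma adjusted p = 0.117). The voom adjusted p was 0.021 for Cebpa (0.0288 without library 3) and 0.151 for Pparg (0.0806 without it). Srebf1 and Nr1h3, regulators of lipogenesis and of sterol-responsive genes, also stood above their controls in every library and missed the threshold, with log2 fold changes of 0.18 and 0.19. Of 17 adipogenic transcription factors tested, 0 passed with limma, and 6 were higher and 3 lower at an unadjusted p below 0.05. At that threshold 1090 of all 12635 genes were higher and 724 lower. Voom, limma's fit for counts run on the rebuilt reads, called 2 of the 17 higher, beside 1.34% of all genes. The median log2 fold change of the 17 factors was 0.11, and 0.06 without library 3. Among 37 tested PPAR targets 4 were called higher (Plin1, Cidec, Lipe and Me1), beside 0.356% of all genes, and 0 lower, with a median of 0.15. Lpl, the lipoprotein lipase and a PPARγ target, had 1382, 1327 and 1363 FPKM at 0 µM and 1461, 1396 and 1386 FPKM at 50 µM (limma adjusted p = 0.639).

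**Figure D2:**
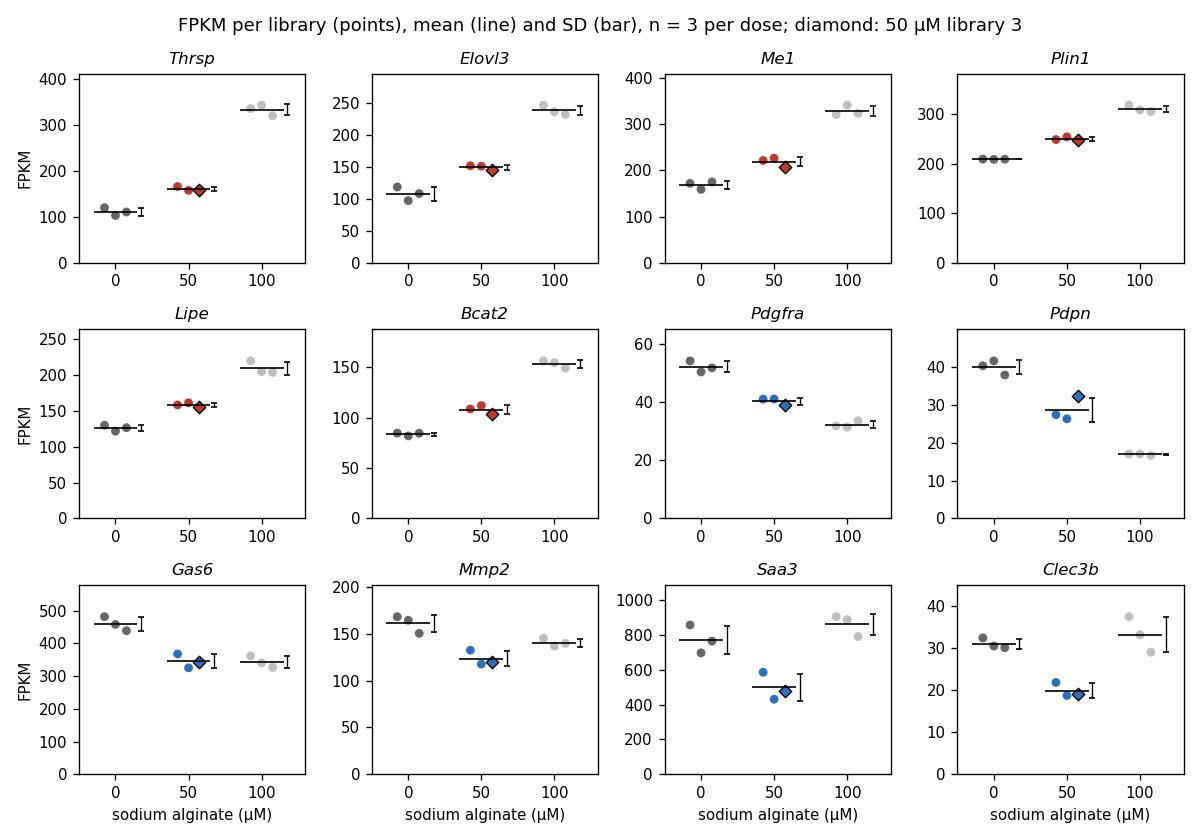
FPKM in each library (points) at 0, 50 and 100 µM alginate for 12 genes called at 50 µM, with the mean (line) and SD (bar) of the 3 libraries per dose and library 3 of 50 µM drawn as a diamond. The 50 µM values lie between the other doses for the 6 genes that rose and for Pdgfra and Pdpn, while Saa3, Clec3b and Mmp2 had their lowest mean at 50 µM.

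Several called genes encode enzymes of central carbon and amino acid metabolism, for which no list was fixed. Mdh1 and Mdh2, the cytosolic and mitochondrial malate dehydrogenases, rose from 221 ± 10.8 to 269 ± 5.08 FPKM and from 130.3 ± 3.28 to 154 ± 1.72 FPKM. Tkt and Taldo1, which carry out the non-oxidative pentose phosphate steps, rose by log2 fold changes of 0.23 and 0.24. Bcat2, the mitochondrial branched-chain aminotransferase, had 84.8, 81.9 and 84.6 FPKM at 0 µM and 109, 112 and 104 FPKM at 50 µM, and it passed with library 3 (log2 fold change 0.36 ± 0.042, limma adjusted p = 0.0253) and without it (limma adjusted p = 0.0334). Nat8l, which makes N-acetylaspartate, rose from 15.3 ± 0.904 to 20.2 ± 1.11 FPKM, and Pfkfb1, a regulator of glycolysis, from 9.28 ± 0.125 to 12.4 ± 0.201 FPKM. Cdo1, the cysteine dioxygenase that feeds taurine synthesis, rose from 379 ± 13.8 to 465 ± 11.6 FPKM, and Car2, a carbonic anhydrase, from 51.6 ± 3.11 to 68.6 ± 2.01 FPKM. Slc2a4, the insulin-responsive glucose transporter, had 25.9, 21.3 and 20.8 FPKM and 29.3, 30.3 and 25.9 FPKM. It did not pass with limma (adjusted p = 0.118), whereas voom on the rebuilt reads gave adjusted p = 0.019, and 0.00466 without library 3.

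Mitochondrial genes stood slightly above the controls, and few passed, beside 0.356% of all genes called higher. Of 59 tested genes of oxidative phosphorylation 1 passed, Uqcrc1 of respiratory complex III, which rose from 76.4 ± 0.781 to 87.4 ± 1.39 FPKM. The log2 fold change was above 0 in 58 of the 59, and in 37 all 50 µM libraries exceeded all controls, beside 12.1% of all tested genes. Their median was 0.15, and 0.14 without library 3, in which the list stood highest. In fatty acid oxidation 2 of 25 tested genes were higher, Acads, the short-chain acyl-CoA dehydrogenase, from 45.9 ± 0.837 to 56.7 ± 3.03 FPKM and Eci1, an enoyl-CoA isomerase, from 82.0 ± 2.85 to 99.2 ± 4.08 FPKM. Tspo, an outer mitochondrial membrane protein, rose from 93.4 ± 0.837 to 121 ± 1.36 FPKM. The remaining higher genes included Pex6, a peroxisome assembly factor (log2 fold change 0.26), Mknk2, a kinase of the translation factor eIF4E (0.32), Tmem120b, a nuclear envelope protein linked to adipocyte differentiation (0.31), and A530016L24Rik (0.43). Plbd1, a phospholipase B-like gene, rose from 5.29 ± 0.252 to 7.52 ± 0.517 FPKM, Plk3, a stress-responsive polo-like kinase, from 19.6 ± 0.736 to 25.1 ± 0.583 FPKM, and Klhl25, an adaptor of a cullin ubiquitin ligase, from 8.17 ± 0.168 to 10.6 ± 0.152 FPKM.

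Pdgfra, Pdpn and the receptor genes Ngfr, Ntrk2, Egfr, Tgfbr2 and Il1r1 were called lower at 50 µM. Pdgfra, the receptor that marks adipose progenitors, had 54.1, 50.3 and 51.7 FPKM at 0 µM and 41.0, 41.0 and 38.9 FPKM at 50 µM. All 3 treated libraries were close together and below every control, by 22.5% on average (log2 fold change -0.36 ± 0.045, limma adjusted p = 0.0253, 0.0615 without library 3). Pdpn, podoplanin, a surface glycoprotein of stromal cells, had 40.2, 41.5 and 37.8 FPKM at 0 µM and 27.3, 26.2 and 32.1 FPKM at 50 µM. Library 3 lay nearest the controls, and the log2 fold change was -0.47 ± 0.071 with it (limma adjusted p = 0.0267) and -0.55 without it (limma adjusted p = 0.0148). The neurotrophin receptors Ngfr and Ntrk2 fell from 9.76 ± 0.655 to 6.87 ± 0.709 FPKM and from 6.54 ± 0.405 to 4.59 ± 0.347 FPKM. Egfr, the epidermal growth factor receptor, fell from 50.2 ± 1.65 to 41.5 ± 1.42 FPKM, Tgfbr2, the type II TGF-beta receptor, from 85.4 ± 1.45 to 67.5 ± 2.30 FPKM, and Il1r1, an interleukin receptor, from 89.3 ± 2.18 to 74.3 ± 2.23 FPKM. The last 5 were chosen from the called genes, and receptors as a class were not tested.

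Of 24 tested progenitor markers 5 fell (Pdgfra, F3, Ngfr, Clec3b and Pdpn) and 0 rose, against 0.435% of all genes called lower. Earlier results for Clec3b, Ngfr and Pdpn were known when the list was written, so that count is no independent evidence of its direction. The list's median log2 fold change was -0.07, and -0.11 without library 3. F3, the tissue factor gene used to mark a stromal subset, had 142, 143 and 139 FPKM at 0 µM and 118, 106 and 117 FPKM at 50 µM. Clec3b, which encodes tetranectin, had 32.3, 30.4 and 30.0 FPKM and 21.8, 18.7 and 19.0 FPKM, a fall of 35.9% (log2 fold change -0.62 ± 0.090, limma adjusted p = 0.0253, 0.073 without library 3).

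Postn, Fmod, Mmp2, Mmp14 and Cpxm1 were called lower among matrix genes, and Col28a1 among collagens. Postn, periostin, a matricellular protein, had 277, 275 and 277 FPKM at 0 µM and 226, 209 and 225 FPKM at 50 µM. Its controls agree within 1% and all treated libraries lay below them (log2 fold change -0.33 ± 0.043, limma adjusted p = 0.0253). Col28a1, a minor collagen, fell from 48.6 ± 2.50 to 34.2 ± 4.14 FPKM, and Fmod, the collagen-binding proteoglycan fibromodulin, from 7.28 ± 0.372 to 5.43 ± 0.172 FPKM. Col1a1, the main fibrillar collagen, had 713, 708 and 659 FPKM at 50 µM, below every control value given above. It did not pass with limma (adjusted p = 0.197), whereas voom on the rebuilt reads gave adjusted p = 0.0322, and 0.0846 without library 3. Mmp2, a gelatinase, had 168, 164 and 150.3 FPKM at 0 µM and 132, 118 and 119.8 FPKM at 50 µM. Its activator on the cell surface, Mmp14, fell too, from 58.7 ± 0.949 to 49.2 ± 1.65 FPKM. The aggrecan-cleaving proteases Adamts1 and Adamts5 were lower with log2 fold changes of -0.39 and -0.36, and Cpxm1, a secreted carboxypeptidase family member, with -0.59. Laminin subunits Lama2 and Lamb2, of the basement membrane, fell from 8.70 ± 0.0812 to 6.97 ± 0.196 FPKM and from 42.0 ± 1.04 to 34.4 ± 1.72 FPKM.

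Beside 0.435% of all genes called lower, 5 of 42 tested matrix genes other than collagens were called lower (Postn, Fmod, Mmp2, Mmp14 and Cpxm1) and 0 higher. The values of the groups did not overlap, in the direction of lower, for 27 of them, beside 8.58% of all tested genes, and the median log2 fold change was -0.17 (-0.17 without library 3). For collagens limma called 1 of 21 lower, Col28a1, with a median of -0.13, and -0.09 without library 3. Median log2 differences of 50 µM libraries 1, 2 and 3 from the control mean were -0.12, -0.06 and -0.21 for this list. The fibrillar collagens were not among the members called by limma. Voom called 6 of the 21 lower, beside 1.42% of all genes, and 4 lower and 1 higher without library 3. In the Wnt and TGF-beta list 1 of 27 was lower, Tgfbr2, with a median of -0.10.

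Saa3, a serum amyloid gene of inflamed fat, had the lowest log2 fold change of the called protein-coding genes on the log2(FPKM + 1) scale. It fell by 35.5% in mean FPKM, less than Arsi (40.9%), Cpxm1 (36.4%), Fam46c (36.1%) and Clec3b (35.9%), which were expressed at lower levels. Saa3 had 858, 698 and 765 FPKM at 0 µM and 586, 431 and 479.8 FPKM at 50 µM. The spread within each dose was wide, yet the highest treated library stayed below the lowest control (log2 fold change -0.64 ± 0.12, limma adjusted p = 0.0481, 0.11 without library 3). Saa3 has close relatives in the genome, and reads shared with them may have been split. C7, a terminal complement component, fell from 7.93 ± 0.477 to 5.38 ± 0.449 FPKM, and Lbp, the lipopolysaccharide-binding protein, from 37.1 ± 1.46 to 28.4 ± 1.84 FPKM. Orm1, an acute-phase orosomucoid, rose instead, from 0.623, 1.21 and 0.867 FPKM to 3.45, 2.33 and 3.45 FPKM, at 7 to 45 rebuilt reads per library. In the acute-phase and complement list 2 of 19 tested were lower (Saa3 and C7) and 1, Orm1, was higher, with a median of -0.15. Of all genes tested, 0.435% were called lower and 0.356% higher.

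Among secreted regulators, Gas6, a ligand of TAM receptor kinases, had 481, 457 and 439 FPKM at 0 µM and 367, 325 and 344 FPKM at 50 µM. All treated libraries lay well below the controls (log2 fold change -0.41 ± 0.061, limma adjusted p = 0.0262). Adm, the vasodilator adrenomedullin, fell from 179 ± 4.00 to 136 ± 9.79 FPKM, Igfbp3, an IGF-binding protein, from 149 ± 4.35 to 116 ± 6.15 FPKM, and Vegfd, a lymphangiogenic growth factor, from 138 ± 6.73 to 111 ± 5.96 FPKM. Gpx3, the secreted glutathione peroxidase, fell from 250.4 ± 12.7 to 189.6 ± 12.2 FPKM, the only change called among 27 tested oxidative stress genes. Slc7a8, an amino acid transporter, fell from 7.90 ± 0.0479 to 5.57 ± 0.479 FPKM, and Ace, the angiotensin-converting enzyme, from 38.9 ± 1.24 to 30.5 ± 1.17 FPKM. Other large decreases were in Arsi, a sulfatase family gene, from 3.87 ± 0.209 to 2.28 ± 0.160 FPKM, Fam46c, from 6.56 ± 0.696 to 4.19 ± 0.326 FPKM, Loxl4, a lysyl oxidase that crosslinks collagen, from 4.44 ± 0.413 to 2.93 ± 0.284 FPKM, and Susd2, from 8.01 ± 0.877 to 5.57 ± 0.318 FPKM. Nrep, the neuronal regeneration related protein gene, had 12.3, 12.5 and 12.7 FPKM at 0 µM and 9.59, 9.09 and 9.60 FPKM at 50 µM, and it also passed without library 3 (limma adjusted p = 0.0434). In the chemokine and inflammation list 1 of 28 was lower, Il1r1, beside 0.435% of all genes called lower.

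The promoters of 4 of these genes are shown because each gene was called and belongs to at least 1 of the lists described: Thrsp (lipogenesis) and Plin1 (PPAR targets), both called higher, and Pdgfra (progenitor markers) and Saa3 (acute phase), both called lower. Each is the 250 bases before the transcription start in RefSeq on GRCm38.p6, 5′ to 3′ on the gene's strand: chr7:97417551-97417800 for Thrsp (minus), chr7:79732777-79733026 for Plin1 (minus), chr5:75152001-75152250 for Pdgfra (plus) and chr7:46715677-46715926 for Saa3 (minus). Capitals mark matches, on either strand, to CCAAT or to TTGCNNAA, letters found in many C/EBP sites. The motifs were chosen after the expression values were seen.
Thrsp: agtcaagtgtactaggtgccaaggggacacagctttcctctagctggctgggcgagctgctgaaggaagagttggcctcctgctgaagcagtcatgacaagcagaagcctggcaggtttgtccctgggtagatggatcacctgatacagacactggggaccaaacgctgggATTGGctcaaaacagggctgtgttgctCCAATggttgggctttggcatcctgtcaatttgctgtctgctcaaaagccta
Plin1: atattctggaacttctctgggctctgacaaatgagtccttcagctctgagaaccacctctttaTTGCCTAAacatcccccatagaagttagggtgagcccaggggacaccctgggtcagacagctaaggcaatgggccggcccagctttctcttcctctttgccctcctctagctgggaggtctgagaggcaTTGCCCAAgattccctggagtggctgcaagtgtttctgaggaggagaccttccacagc
Pdgfra: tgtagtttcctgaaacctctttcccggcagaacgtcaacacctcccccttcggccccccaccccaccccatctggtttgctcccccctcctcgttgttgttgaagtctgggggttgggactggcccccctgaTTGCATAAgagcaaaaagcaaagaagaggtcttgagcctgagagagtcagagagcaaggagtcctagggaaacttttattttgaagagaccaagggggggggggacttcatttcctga
Saa3: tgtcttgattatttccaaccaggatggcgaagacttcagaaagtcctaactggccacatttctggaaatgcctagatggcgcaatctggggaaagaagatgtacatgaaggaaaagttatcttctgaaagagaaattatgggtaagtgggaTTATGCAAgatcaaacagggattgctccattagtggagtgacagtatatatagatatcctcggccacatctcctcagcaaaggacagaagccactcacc
Thrsp held CCAAT 2 times, starting 79 and 52 bases before the start, and Plin1 held TTGCNNAA 2 times, starting 187 and 58 bases before it. In Pdgfra and in Saa3 a single TTGCNNAA began 118 and 99 bases before the start. CCAAT was in 33.8% and TTGCNNAA in 9.56% of all 32851 such windows. Of the called genes, 30 higher and 38 lower ones matched a RefSeq promoter by symbol, and TTGCNNAA was in at least 1 window of 6 and 8 of them, beside 10.8% of all genes with a window. CCAAT was in 10 of the 30 and 9 of the 38, beside 37.5% of all genes. AGGTCA, the hexamer bound by nuclear receptors, was in 2 of the 30 and 6 of the 38 (15.8% of all genes), TATAAA in 2 and 5 (14.3%), and the direct repeat of that hexamer with 1 base between, the idealised PPAR element, in 0 of both (0.0407%). Such matches describe letters only and are no evidence that a factor binds.

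On the C57BL/6NJ strain assembly, whose gene identifiers the deposited table uses, these protein-coding genes lie elsewhere by coordinate: Thrsp (MGP_C57BL6NJ_G0033007, chromosome 7 at 103999940 to 104004734, minus strand), Plin1 (MGP_C57BL6NJ_G0032876, chromosome 7 at 84824473 to 84843907, minus strand), Pdgfra (MGP_C57BL6NJ_G0030068, chromosome 5 at 78303537 to 78349133, plus strand) and Saa3 (MGP_C57BL6NJ_G0032751, chromosome 7 at 49373855 to 49377533, minus strand). These are whole gene spans, and the promoter windows above are on the reference build.

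Several lists had no member called by limma. Cholesterol synthesis had a median log2 fold change of -0.00415 over 23 genes, with Dhcr7 at 0.24 and Idi1, of the mevalonate pathway, at -0.34, the members nearest the threshold. For 37 cell cycle genes the median was 0.10, and 0.06 without library 3. Their log2 fold change was above 0 in 34 and below 0 in 3, beside 6818 above 0 of all 12635 genes. The median was 0.01 for 25 interferon genes, 0.02 for 26 stress genes of the endoplasmic reticulum and 0.02 for 24 immediate early genes. Before adjustment, p was below 0.05 for higher and for lower members in numbers of 5 and 1 for cholesterol, 7 and 1 for cell cycle, 2 and 0 for interferon, 3 and 1 for stress and 2 and 3 for immediate early genes. The same numbers for all 12635 genes were 1090 and 724. Voom called 3 cholesterol genes and 1 cell cycle gene higher, beside 1.34% of all genes, and none in the other lists just named. Thermogenic and beige genes had 1 of 17 called higher, Elovl3, beside 0.356% of all genes. Pfkfb1 alone was higher in the glycolysis list and in the glucose uptake list, and Slc7a8 alone was lower among solute carriers.

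**Figure D3:**
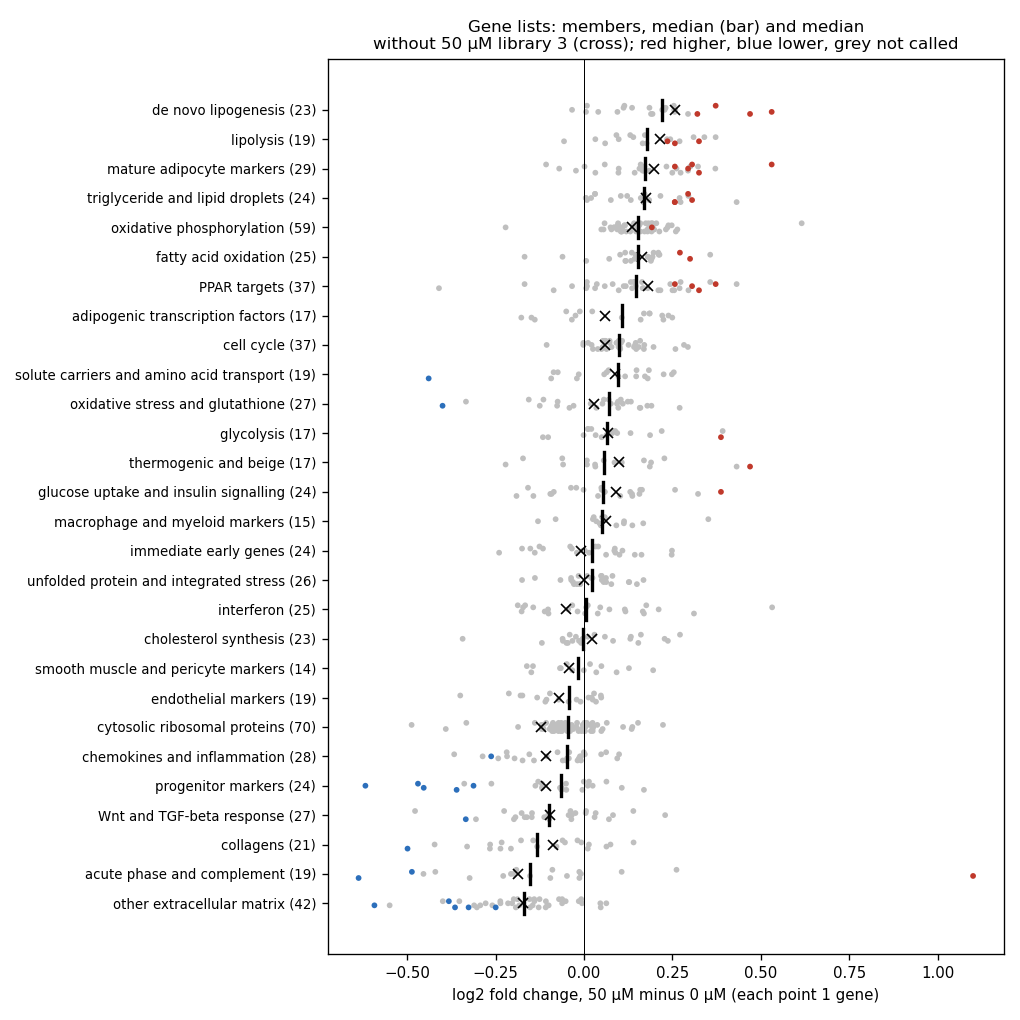
Log2 fold change of 50 µM against 0 µM for the tested members of each list with at least 10 tested genes (number in brackets), with the median as a bar and the median without library 3 of 50 µM as a cross. Lipogenesis, lipolysis and adipocyte lists have the highest medians (0.22, 0.18 and 0.17), matrix genes the lowest (-0.17), and called members (red higher, blue lower) are a minority in every list.

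Few markers of other cell types were called, beside 0.791% of all genes in either direction. At that share lists of this size would hold few or no calls, so 0 called does not show equal levels. Summed levels of 22 macrophage markers were 333 to 362 FPKM at 0 µM and 360.2 to 364 FPKM at 50 µM, with 0 of 15 tested genes called. For 21 endothelial markers the sums were 304 to 340.2 FPKM at 0 µM and 304 to 335 FPKM at 50 µM, with 0 of 19 called, and for 16 smooth muscle and pericyte markers 439 to 488 FPKM at 0 µM and 437 to 502.97 FPKM at 50 µM, with 0 of 14 called. Voom also called 0 in these 3 lists, beside 2.75% of all genes. At an unadjusted limma p below 0.05, 2 macrophage genes were higher, 4 endothelial genes lower and 1 smooth muscle gene higher. At that threshold 1090 of all 12635 genes were higher and 724 lower. All 50 µM libraries lay below all controls in 5 of the 19 endothelial genes and 1 smooth muscle gene, beside 8.58% of all tested genes. They lay above all controls in 2 macrophage and 2 smooth muscle genes, beside 12.1%. The summed ranges overlapped between the doses in these 3 lists, whereas the summed adipocyte markers (9899 to 10258 FPKM at 0 µM and 10974 to 11433 FPKM at 50 µM) did not overlap. Nor did the sums of 10 Schwann and neural markers, at 15.08 to 16.12 FPKM at 0 µM and 12.33 to 15.04 FPKM at 50 µM. Of 3 tested there, 1 was called lower, Ngfr, which is also on the progenitor list. Mesothelial, skeletal muscle and lymphocyte or erythroid markers were under 1 FPKM in all 6 libraries for 12 of 14, 9 of 12 and 11 of 11 genes. Progenitor markers summed to 1592 to 1695 FPKM at 0 µM and 1464 to 1603 FPKM at 50 µM, and library 3 alone overlapped the controls.

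Library 3 of 50 µM stood apart from libraries 1 and 2. On the second principal component of all 9 libraries, with 11.92% of the variance, it lay at -19.1, libraries 1 and 2 at -1.26 and -2.01. Limma's quality weights, which scale each library by how closely it follows the fitted means, gave it 0.605, the lowest of the 9, against 1.31 and 1.13 for libraries 1 and 2 and 0.895 to 1.34 for the controls. Its genome-wide distance from its replicates was the largest within any dose, by a small margin. The root mean square log2 difference was 0.283 and 0.281 for its pairs and 0.261 for libraries 1 and 2. Control pairs ranged from 0.259 to 0.274 and 100 µM pairs from 0.273 to 0.277.

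Its departure followed gene length. Among genes with a mean of at least 5 FPKM, the median log2 difference from libraries 1 and 2 was 0.13 in the shortest of 5 length classes (up to 1525 bases), 0.02 in the middle class and -0.07 in the longest (from 6345 bases). No other of the 9 libraries had a larger difference in the shortest class in either direction, and the nearest was 100 µM library 3, at -0.10. Smaller trends with length were present in other libraries. From the shortest to the longest class, 100 µM library 3 ran from -0.10 to 0.05, 50 µM library 2 from -0.08 to 0.05 and control library 2 from 0.05 to -0.04. Ribosomal protein and oxidative phosphorylation genes stood high in 50 µM library 3. Of 70 tested ribosomal protein genes 64 were highest in library 3 of the 3, as were 45 of 59 oxidative phosphorylation genes, beside 37.3% of all genes. Lipogenesis genes went the other way, with 17 of 23 lowest in library 3, beside 35.6% of all genes. Rps23, of the small ribosomal subunit, had 113, 110.2 and 185 FPKM in the 50 µM libraries, and Rps28 32.3, 33.0 and 57.9 FPKM. Il11ra1, an interleukin receptor subunit, had 9.97, 8.63 and 21.3 FPKM, the largest excess of a protein-coding gene with a mean of at least 5 FPKM at 50 µM, and Hipk2, a nuclear kinase, 21.3, 24.1 and 13.6 FPKM, among the largest deficits of such genes. The called genes also differed in length, with a median of 2633 bases for higher and 4058 for lower genes beside 3430 for all tested. The medians of the fold change by length class ran from 0.04 to -0.01 with library 3 and between 0.01 and 0.02 without it. The part of gene length in the calls was not tested.

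**Figure D4:**
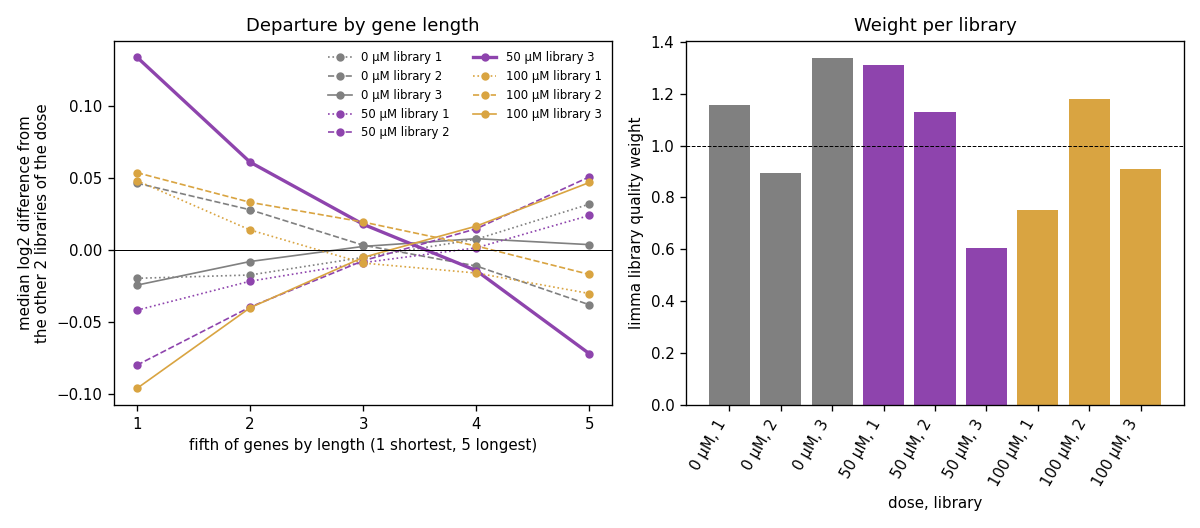
Left, median log2 difference of each library from the other 2 libraries of its dose, for 5 classes of gene length (genes with a mean of at least 5 FPKM), and right, limma's quality weight per library with a dashed line at 1. Library 3 of 50 µM (thick line) runs from 0.13 in the shortest genes to -0.07 in the longest and has the lowest weight, 0.605.

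The weight of library 3 differed between gene groups. Median log2 differences of libraries 1, 2 and 3 from the control mean were 0.23, 0.26 and 0.13 for lipogenesis, 0.20, 0.18 and 0.18 for adipocyte markers and -0.20, -0.18 and -0.15 for matrix genes, so all 3 libraries moved the same way in these lists. For progenitor markers they were -0.12, -0.10 and 0.02, for thermogenic genes 0.13, 0.10 and -0.04 and for ribosomal proteins -0.09, -0.15 and 0.12, so library 3 was on the other side of the controls. Among the called genes, library 1 was the 50 µM library nearest the controls in 44 of the 55 lower genes and library 3 in 6. Of the 45 higher genes, library 3 was nearest in 21, library 2 in 14 and library 1 in 10. The median log2 difference from the control mean was 0.32, 0.32 and 0.30 for libraries 1, 2 and 3 over the higher genes, and -0.31, -0.42 and -0.36 over the lower ones, values given as a description since these genes were called on the same libraries.

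Without library 3, limma called 8 genes higher and 5 lower, 0.0633% and 0.0396% of those tested, 0.103% together, and 9 of the 100 were among them: Thrsp, A530016L24Rik, Nat8l, Pfkfb1, Bcat2, Tmem120b and Mknk2 higher and Pdpn and Nrep lower. The 100 had a median adjusted p of 0.0713 in that fit. Their direction could not turn there, since in each of them every 50 µM library lay outside the range of the controls. Ctsk, the cathepsin K protease gene, was called in that fit and not with library 3 (38.5, 38.0 and 41.1 FPKM at 0 µM, 28.7, 27.4 and 34.1 FPKM at 50 µM, with library 3 nearest the controls). Leaving out any 1 of 4 other libraries of these doses left fewer calls still. Limma made 0 calls without 50 µM library 2, control library 1 or control library 2 (1636, 1493 and 1547 genes with an unadjusted p below 0.05), 1 call without control library 3 and 42 without 50 µM library 1. Voom on the rebuilt reads called 348 genes with library 3, 2.75% of those tested (1.34% higher and 1.42% lower), and 342 without it, and 95 and 93 of the 100 were among these. With library 3 kept at its fitted weight limma called 91 higher and 91 lower (0.72% each, 1.44% together), all 100 included.

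**Figure D5:**
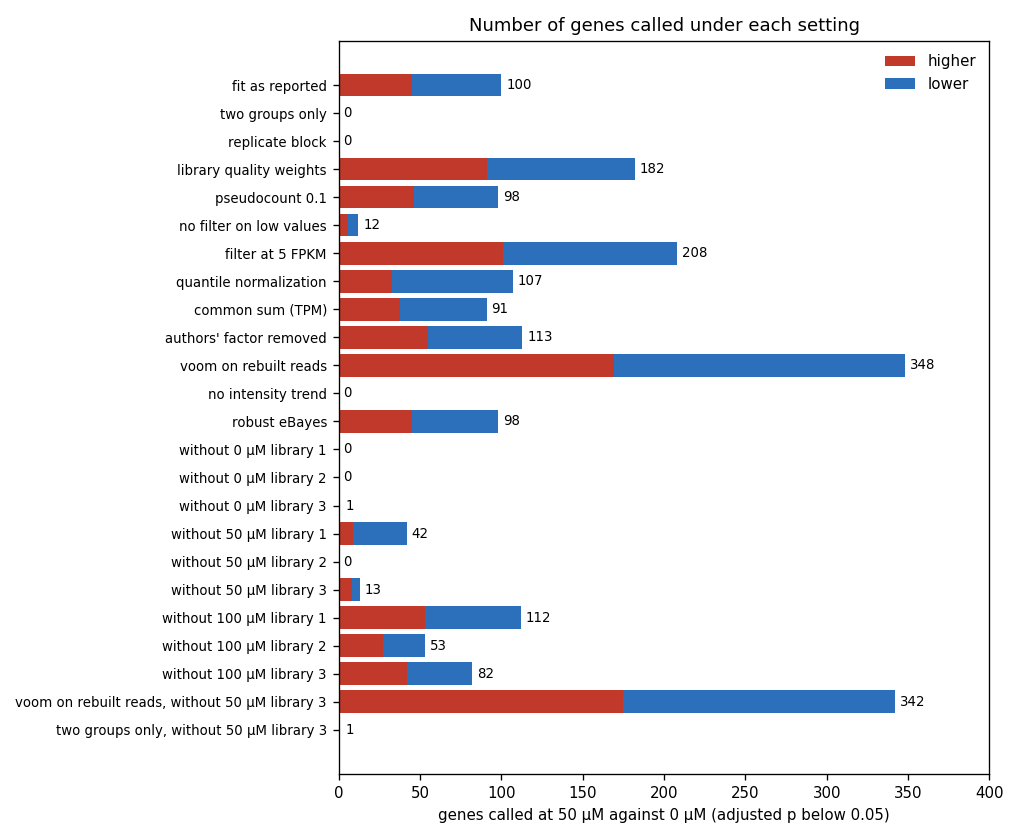
Number of genes called at 50 µM against 0 µM (adjusted p below 0.05), higher in red and lower in blue, under the fit as reported and each alternative, with the total at the end of each bar. The total runs from 0 in fits with fewer libraries, a block or no intensity trend to 348 with voom, against 100 as reported and 13 without library 3 of 50 µM.

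The doses shared their controls, so values at 100 µM are set beside those at 50 µM without a test between them. At 100 µM Thrsp had 332 ± 11.7 FPKM, Plin1 310.5 ± 6.70 and Pdgfra 32.3 ± 1.15 (SD, n = 3), each further from the controls than at 50 µM. All 45 higher genes and 46 of the 55 lower genes were also called in the same direction at 100 µM, where 33.9% of all genes were called in either direction. Both comparisons share the controls and the estimate of spread, so these counts are no independent agreement. Lower genes with names that were not called at 100 µM were Saa3, Clec3b, C7, Dpt, Nrep, Ccdc80, Ntrk2 and Gm7160. The fall was larger at 50 than at 100 µM in 21 of the 55 lower genes, and the rise in 3 of the 45 higher genes. Saa3 had 862 ± 61.6 FPKM at 100 µM, 499 ± 79.1 at 50 µM and 773 ± 80.4 at 0 µM, and Dpt, which encodes the matrix protein dermatopontin, 37.0 ± 1.89, 28.4 ± 1.58 and 37.2 ± 1.80. Both had their lowest mean at the intermediate dose, a pattern that was not tested.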

How the data were processed

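RNA-seq of 9 libraries was deposited as 1 table of FPKM values, per the file headers. For the authors' aligner, counter and strand setting the entry is: not given in the sources used here. GRCm38 and mm10 stand in the submitters' processing notes, whereas the gene identifiers are those of the C57BL/6NJ assembly. FPKM times gene length gave whole multiples of 1 read (tolerance 0.01) for 100% of values. The rebuilt reads showed that the deposited scaling held a factor per library equal to a median-of-ratios size factor. Overlapping and near-identical genes may share reads.

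Groups follow the treatment labels. For the 100 µM group the titles read 50 µM instead. Log2(FPKM + 1) was fitted with limma 3.58.1 in R 4.3.3, with 1 mean per dose over all 9 libraries, moderated variances with an intensity trend and Benjamini-Hochberg adjustment over 12635 genes. The filter edge lay between Mbd4 (third-highest FPKM 1.00047) and Zfp111 (0.999775). The 32 gene lists (841 symbols, 792 genes found, 681 tested) share members, such as Plin1. The members and lists were chosen with earlier results of these data known. Named genes were protein-coding, called, without overlap and at 5 FPKM or more in the higher group (20 largest changes each way), called list members, or, for lists without a call, the 2 members with the smallest p. A further 16 were always considered. Others were named after their values were seen. Motifs and voom without library 3 were chosen after seeing the data.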

Additional observations from a re-analysis of the deposited data

How the results depend on the processing

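The number of genes called depended on the setting. No called gene changed direction, which says nothing of stability, since the values of the 2 doses do not overlap in any of the 100. The counts higher and lower were 45 and 55 as reported. Limma called 0 and 0 with only the 0 and 50 µM libraries (1837 genes at an unadjusted p below 0.05), 0 and 0 with no intensity trend (1755), 6 and 6 over all genes without the low-value filter, 101 and 107 with a filter at 5 FPKM, 91 and 91 with library quality weights, and 169 and 179 with voom on the rebuilt reads. Voom without 50 µM library 3 gave 175 and 167, and the fit of those 2 doses without it 0 and 1 (both chosen after seeing the data). Quantile normalization gave 33 and 74, TPM 38 and 53, the authors' factor removed 55 and 58, a pseudocount of 0.1 46 and 52, and robust moderation 45 and 53. Leaving out 1 library at a time gave 0 to 53 higher and 0 to 59 lower, the most without 100 µM library 1 and 53 in all without 100 µM library 2. The cause of these differences was not tested beyond fewer libraries or genes entering a fit. With the library number as a replicate block limma called 0 and 0 (1603 at an unadjusted p below 0.05). Same-numbered libraries of 0 and 50 µM did not deviate together (r = 0.02, -0.07 and -0.02 across genes), and not every library correlated best with its own number. These deviations are from means of 3 libraries and sum to 0 within a dose. They cannot decide whether a number marks a shared mouse, culture or batch. Counts of 3 libraries per dose limit every adjusted p, and the shortest or lowest called genes rest on few reads (Mir7227 0 to 3 and Orm1 7 to 45 per library).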

Other observations

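Smaller groups of genes at 50 µM showed values that the lists above do not cover. Among the lower genes were adhesion and junction genes, with Cdh11, a mesenchymal cadherin, falling from 26.4 ± 0.267 to 22.0 ± 1.09 FPKM (SD, n = 3) and Gja1, the connexin 43 gene, from 30.9 ± 1.21 to 24.5 ± 0.696 FPKM. Angpt2, an angiopoietin, fell from 53.6 ± 0.710 to 45.0 ± 1.97 FPKM, Prg4, the lubricin proteoglycan, from 38.5 ± 1.70 to 28.9 ± 1.56 FPKM, and Aebp1, a transcriptional repressor and secreted protein of adipose stroma, from 73.9 ± 0.0374 to 62.2 ± 0.552 FPKM. The sushi-repeat genes Srpx and Srpx2 were lower with log2 fold changes of -0.33 and -0.43, and Slc39a14, a zinc and iron transporter, with -0.31. Among the higher genes Ormdl3, a regulator of sphingolipid synthesis, rose from 55.3 ± 0.694 to 65.9 ± 0.674 FPKM, Aifm2, a ferroptosis suppressor also known as FSP1, from 29.4 ± 0.834 to 36.2 ± 1.45 FPKM, and Msra, a methionine sulfoxide reductase, from 17.1 ± 0.547 to 20.3 ± 0.345 FPKM. All of these passed at a limma adjusted p below 0.05, were chosen after their values were seen, and were not called without library 3 of 50 µM. Voom on the rebuilt reads did not call Msra (adjusted p = 0.0653).

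The noncoding antisense RNA Hotairm1 was called higher, at 2.09, 2.08 and 2.30 FPKM in the 0 µM libraries and 3.24, 3.77 and 3.54 FPKM in the 50 µM libraries, with 31 to 62 rebuilt reads per library. Limma without library 3 did not call it (adjusted p = 0.069), nor did voom on the rebuilt reads with library 3 (adjusted p = 0.117) or without it (0.179). The strand setting of the counting is not given, so its reads and those of overlapping genes cannot be told apart. Mir7227 had 3.51, 2.26 and 2.28 FPKM at 0 µM and was listed at 0 in 2 of the 50 µM libraries, at 0 to 3 rebuilt reads per library, too few to give a fold.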
